A study of Mus musculus with 12 samples.

Results

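The lineage difference, the expression of a gene in luminal minus that in basal mammary epithelial cells, was compared between MMTVRANK and WT mice. All 12 of 12 libraries of the RNA sequencing series entered the comparison, grouped by genotype and population in their titles: WT luminal, MMTVRANK luminal, WT basal and MMTVRANK basal, with 3 libraries each. In MMTVRANK mice the receptor Rank is expressed from the mouse mammary tumour virus promoter, which is active mainly in mammary epithelium. Cells of all 4 groups were sorted alive on CD24 and CD49f from enzymatically dissociated mammary glands, and the labels give no strain, age, parity or treatment. Whether replicates come from separate animals or from pools is not given, so the p-values measure the spread between these libraries, which may be technical.

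The mammary duct has an inner layer of luminal cells and an outer layer of basal cells. Luminal cells include the hormone-sensing cells, which carry the oestrogen and progesterone receptors, and the progenitors that give rise to milk-secreting alveolar cells. Basal cells are largely contractile myoepithelium that squeezes milk out under oxytocin and lays down basement membrane. Rank, encoded by Tnfrsf11a, is the receptor for the cytokine Rankl, which hormone-sensing cells release in response to progesterone, and it signals through NF-kB in the cell that carries it.

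Libraries held 12459547 to 15069578 counts and 19472 to 26410 genes with a count, with the fewest genes in WT luminal replicate 1. The first principal component, 63.7% of the variance, separated the 6 libraries titled luminal (−160 to −79.4) from the 6 titled basal (118 to 135), with MMTVRANK luminal replicate 3 nearest to the basal side. For both libraries labelled WT replicate 2, the title and the cell subtype field name opposite populations; they lay with the population in the title, which was used. Tnfrsf11a, the transgene's gene, read 6.36, 90.8 and 9.91 CPM (counts scaled to library size) in WT luminal and 319, 156 and 238 CPM in MMTVRANK luminal libraries 1, 2 and 3. In basal libraries it read 73.7, 158 and 65.3 CPM in WT and 415, 129 and 218 CPM in MMTVRANK. The libraries labelled WT replicate 2 were thus the highest of their WT groups, and in the basal population the library labelled WT replicate 2 exceeded MMTVRANK replicate 2. Class medians, and the list medians and named genes that moved most with these libraries or with MMTVRANK luminal replicate 3, are also given without them.

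Only 1 of 18236 tested genes passed the test of a different lineage difference, with none passing in the higher direction (edgeR quasi-likelihood test with Benjamini-Hochberg adjusted p under 0.05; 0.00548% of the genes tested in either direction). That gene is Epb41l3, described next. Without adjustment, 1410 genes had a p under 0.05 (7.73%), of which 830 had a higher and 580 a lower luminal-minus-basal value in MMTVRANK than in WT (4.55% and 3.18%). The number of calls depended on the tool. DESeq2's Wald test called 140 of 14984 genes with an adjusted p (0.934%), 72 higher (0.481%) and 68 lower (0.454%), while limma-voom called 0. Values of single genes other than Epb41l3 are therefore descriptions of these libraries, chosen after their values were seen unless a list or the rule of naming brought them in.

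Lineage-restricted genes were defined from the luminal-minus-basal difference averaged over both genotypes, at a log2 value of at least 2 in size and an edgeR adjusted p under 0.05. The average weights the genotypes equally. It favours neither direction of the difference between them where their spread is alike, which was not checked. Just inside the threshold lay Zfp429 at 2.0004 and Nnat at −2.0012, with Cd1d1 at 1.996 and Prickle1 at −1.9998 just outside. By this rule 1274 genes were luminal-restricted and 2436 basal-restricted, and 14526 were neither. The scatter of lineage differences shows both classes along the diagonal in the 2 genotypes.

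**Figure D1:**
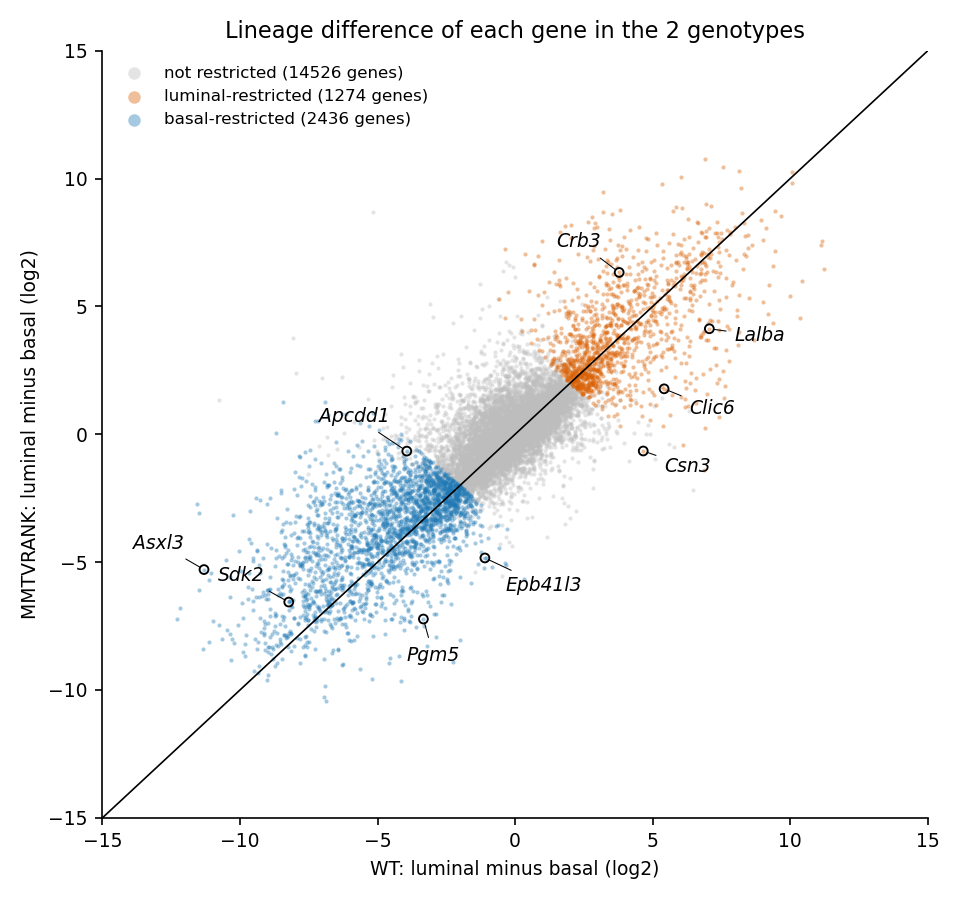
Luminal-minus-basal log2 difference of each tested gene in WT (horizontal) and MMTVRANK (vertical), coloured by class, with the line of equal values. Epb41l3, the 1 gene that passed the test, lies at −1.10 in WT and −4.84 in MMTVRANK; the other circled genes are named in the text and did not pass it.

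Over the class of luminal-restricted genes, the lineage gap differed little between genotypes. The median lineage difference of the 1274 luminal-restricted genes was 3.38 in WT and 3.59 in MMTVRANK, on the log2 scale. The median of their differences was 0.05, the same as over all tested genes (0.05), with 662 genes higher and 612 lower. Values per pair of libraries with the same genotype and number were taken from log2 CPM, not from the fit, and are on another scale. By pair the class median read 2.95, 3.11 and 3.09 in WT and 3.15, 3.22 and 2.75 in MMTVRANK, so that the genotypes overlapped. None of the class passed the test in either direction. At an unadjusted p under 0.05 there were 94 with a wider gap (7.38%) and 72 with a narrower gap (5.65%) in MMTVRANK.

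Basal restriction was narrower in MMTVRANK by the class median, and this rested largely on 1 library. The 2436 basal-restricted genes had a median luminal-minus-basal value of −4.30 in WT and −3.48 in MMTVRANK. Of these, 1623 (66.6%) had a higher value in MMTVRANK, that is a smaller gap, against 53.9% of all genes tested, and the median difference was 0.59. It was 0.44 with the 358 genes that had a group at 0 set to a floor of 3 counts over the group. On the log2 CPM scale the pairs read −3.85, −3.36 and −3.31 in WT and −3.15, −3.30 and −2.71 in MMTVRANK. They did not overlap, although WT pair 3 and MMTVRANK pair 2 were nearly equal. Without MMTVRANK luminal replicate 3 the class median was 0.13, with 53.6% of the class higher, and without both MMTVRANK libraries numbered 3 it was 0.11. Without WT luminal replicate 3 the median was 1.10, without WT luminal replicate 2 it was 0.94, and without both WT libraries numbered 2 it was 0.90. In this bulk measurement, a few basal cells in a luminal sort and basal genes read in luminal cells cannot be told apart. The genotype values behind the median were 0.47 in luminal and −0.01 in basal libraries. At an unadjusted p under 0.05 there were 278 with a narrower gap (11.4%) and 100 with a wider gap (4.11%), against 4.55% and 3.18% of all genes. The MMTVRANK pairs lay above the WT pairs in 236 (9.69%) and below them in 123 (5.05%), against 7.89% and 6.86% of all genes. These counts were not taken without MMTVRANK luminal replicate 3.

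**Figure D2:**
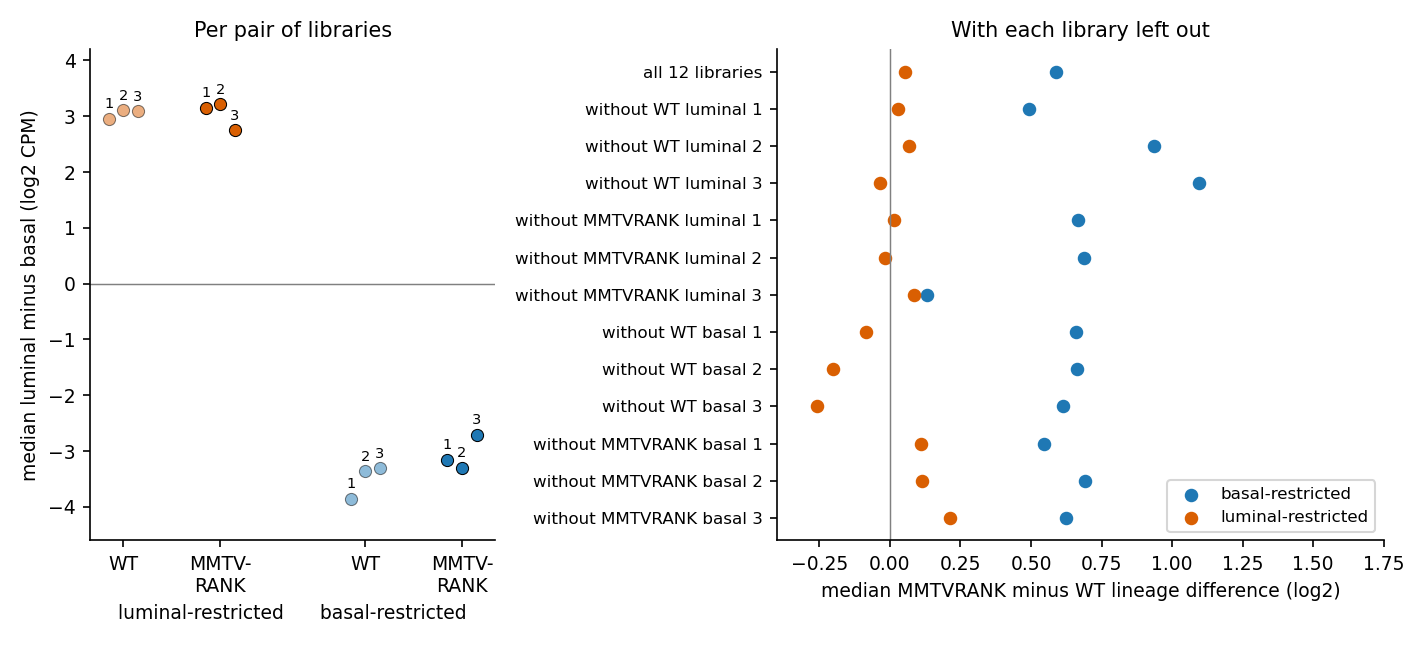
Left, median luminal-minus-basal log2 CPM of each class in each pair of libraries, numbered by replicate; right, median MMTVRANK-minus-WT lineage difference of each class with all 12 libraries and with each left out. The basal-restricted median moves from 0.59 to 0.13 without MMTVRANK luminal replicate 3, while the luminal-restricted median stays between −0.26 and 0.21.

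Epb41l3, which encodes a band 4.1 protein that links membrane proteins to the actin cytoskeleton, gained basal restriction in MMTVRANK. It read 24.5, 25.1 and 28.9 CPM in WT luminal and 3.20, 1.92 and 3.51 CPM in MMTVRANK luminal libraries. Basal libraries read 49.1, 86.2 and 32.8 CPM in WT and 96.1, 78.4 and 73.0 CPM in MMTVRANK. The luminal groups did not overlap, all 3 MMTVRANK libraries being lower, as held for 6.82% of all genes, whereas the basal groups did. The group means were 26.2 ± 2.37 and 2.88 ± 0.846 CPM in luminal and 56.0 ± 27.4 and 82.5 ± 12.1 CPM in basal libraries of WT and MMTVRANK (SD, n = 3). Luminal minus basal was −1.10 in WT (SE 0.31) and −4.84 in MMTVRANK (SE 0.36), a difference of −3.74 (SE 0.46, edgeR adjusted p = 0.042). Pair by pair it was −0.996, −1.77 and −0.18 in WT and −4.85, −5.25 and −4.32 in MMTVRANK, lower in each of the 3 MMTVRANK pairs than in any WT pair, as held for 6.86% of all genes tested. The genotype effect was −3.18 in luminal (edgeR adjusted p = 0.00921) and 0.56 in basal cells (edgeR adjusted p = 0.948).

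The call was close to the threshold. With a block for the replicate number the edgeR adjusted p was 0.107, and with a block for each pair of genotype and number it was 0.111; both fits called 0 genes. DESeq2 gave an adjusted p of 2.36e-10 and limma-voom 0.41. The difference itself ran from −4.20 to −3.47 with each library left out, and the call was kept in 5 of these 12 fits. In the deposited annotation the gene spans chr17:69075683-69289989 on the plus strand (GRCm38.p6), with 11919 bases of exon that no other gene's exons overlap.

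Promoter windows are shown for Epb41l3 and for Col11a1 and Pgm5, basal-restricted genes with a wider gap in MMTVRANK as well, so that the sequences at the starts of genes with this pattern can be compared. Each window, from RefSeq on GRCm38.p6, covers 300 bases, mostly before the annotated start, and is written 5′ to 3′ on the gene's strand. Capitals mark the E-box CANNTG, the letters that basic helix-loop-helix and Snail-type factors can bind, searched on both strands, on which it reads alike. Epb41l3 has 3 entries, of which the first is printed (chr17:69075427-69075726, plus strand). The others are chr3:114030290-114030589 (plus strand) for Col11a1 and chr19:24861793-24862092 (minus strand) for Pgm5.
Epb41l3: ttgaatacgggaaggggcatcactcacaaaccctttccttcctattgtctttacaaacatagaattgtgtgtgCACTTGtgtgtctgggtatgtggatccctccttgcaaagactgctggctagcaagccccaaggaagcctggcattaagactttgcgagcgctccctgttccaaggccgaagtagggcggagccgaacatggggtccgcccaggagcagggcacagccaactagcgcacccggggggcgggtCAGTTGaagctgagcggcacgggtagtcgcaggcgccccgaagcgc
Col11a1: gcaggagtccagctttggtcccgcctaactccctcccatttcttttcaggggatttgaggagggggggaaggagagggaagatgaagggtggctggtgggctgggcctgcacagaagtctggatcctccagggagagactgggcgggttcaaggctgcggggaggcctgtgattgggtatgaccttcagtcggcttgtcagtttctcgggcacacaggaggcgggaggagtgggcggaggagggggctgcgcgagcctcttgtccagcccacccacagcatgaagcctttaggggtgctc
Pgm5: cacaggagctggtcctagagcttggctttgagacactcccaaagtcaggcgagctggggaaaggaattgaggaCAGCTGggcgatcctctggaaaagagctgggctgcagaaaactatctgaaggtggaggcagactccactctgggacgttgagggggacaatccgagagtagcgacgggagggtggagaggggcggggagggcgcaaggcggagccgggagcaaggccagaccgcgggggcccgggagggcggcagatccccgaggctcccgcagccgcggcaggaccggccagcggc
The window of Epb41l3 held 2 E-boxes, that of Pgm5 1 and that of Col11a1 0, where 72.3% of 32851 promoter windows of this length hold at least 1. TATAAA, the Stat5 letters TTCNNNGAA and the NF-kB motif were in none of the 3 printed windows and in 13.6%, 8.30% and 8.46% of all windows. Of the other basal-restricted genes with a wider gap that are named next, Scarf2 has 1 window without these 3 motifs, while 2 overlapping windows of the 3 of Rusc2 hold the NF-kB motif once each. These are matches of letters and were not tested as sites.

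Besides Epb41l3, the 5 basal-restricted genes with the smallest p and a wider gap in MMTVRANK were Rusc2, Mkx, Col11a1, Pgm5 and Scarf2. None passed the test of the difference, with edgeR adjusted p between 0.127 and 0.189. Col11a1, a chain of a fibrillar collagen, read 14.9, 10.5 and 34.4 CPM in WT luminal and 3.47, 2.88 and 3.87 CPM in MMTVRANK luminal libraries. In basal libraries it read 266, 356 and 199.9 CPM in WT and 409, 505 and 489.5 CPM in MMTVRANK. MMTVRANK was lower in luminal and higher in basal cells with no overlap in either (6.82% and 6.6% of all genes), and the difference was −3.32 (SE 0.53). Pgm5, a phosphoglucomutase-like protein of adherens junctions in muscle, read 4.94, 4.75 and 14.7 CPM in WT luminal and 0.681, 0.384 and 1.23 CPM in MMTVRANK luminal libraries. Its basal values were 68.3, 89.6 and 88.9 CPM in WT and 109, 119 and 122 CPM in MMTVRANK, for a difference of −3.89 (SE 0.62). Here too the libraries of the genotypes did not overlap in either population, and WT luminal replicate 3 was the highest luminal library for both genes.

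Rusc2, a trafficking adaptor, stood at 9.65, 8.44 and 12.9 CPM in WT luminal against 3.27, 3.84 and 4.39 CPM in MMTVRANK luminal libraries. With 93.0, 69.6 and 76.9 CPM in WT basal and 91.7, 114 and 92.5 CPM in MMTVRANK basal libraries the difference was −1.74 (SE 0.28). Only the luminal groups were apart. Mkx, the tendon homeobox factor Mohawk, had 1.497, 0.993 and 1.40 CPM in WT luminal, 0.476, 0.384 and 0.644 CPM in MMTVRANK luminal, 7.73, 7.56 and 5.90 CPM in WT basal and 21.9, 22.3 and 18.3 CPM in MMTVRANK basal libraries. Its groups were apart in both populations, and more than elsewhere the difference of −2.91 (SE 0.47) came from higher basal values. Scarf2, a scavenger receptor family member, had 15.2, 18.8 and 13.2 CPM in WT luminal and 2.04, 2.05 and 4.10 CPM in MMTVRANK luminal libraries, and overlapping basal values from 37.7 to 63.4 CPM. Within luminal cells, Rusc2, Col11a1, Pgm5 and Scarf2 fell in MMTVRANK, with log2 changes of −1.43, −2.55, −3.38 and −2.52 (edgeR adjusted p = 0.0332, 0.0387, 0.0332 and 0.00921; 0.159% of all genes were called lower). That contrast shares its luminal libraries with the difference and is not separate support for it. With 1 library left out, the difference passed in 1 of 12 fits each for Col11a1 and Pgm5 (without WT luminal replicate 3, edgeR adjusted p = 0.0457 for both) and for Scarf2 (without MMTVRANK luminal replicate 3, edgeR adjusted p = 0.0216), and in 0 of 12 for Rusc2 and Mkx. Col11a1 also passed without both WT libraries numbered 2 (edgeR adjusted p = 0.0333).

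**Figure D3:**
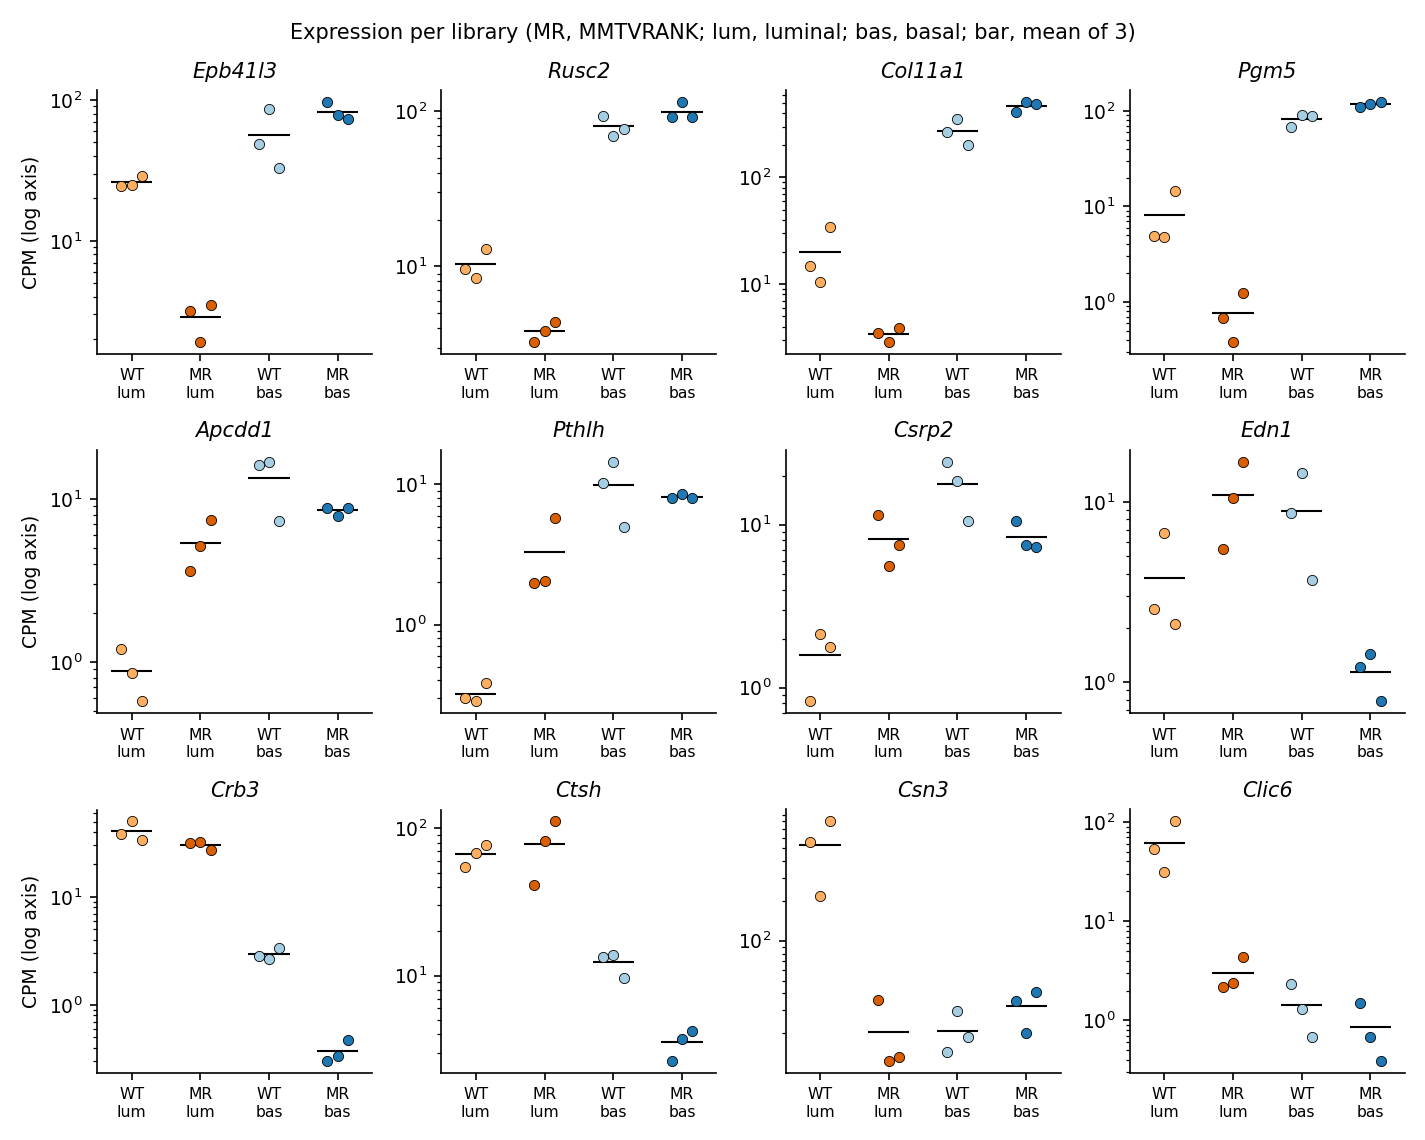
CPM per library on a log axis for 12 genes in WT and MMTVRANK luminal and basal libraries, with the mean of 3 as a bar. MMTVRANK luminal libraries lie below all WT luminal libraries for Epb41l3, Rusc2, Col11a1 and Pgm5, and MMTVRANK basal libraries lie below all WT basal libraries for Csrp2, Edn1, Crb3 and Ctsh.

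Basal-restricted genes with a narrower gap in MMTVRANK were led by Apcdd1, Abi3bp, Pthlh, Pamr1, Asxl3 and Sdk2, none of which passed (edgeR adjusted p from 0.229 to 0.397). Apcdd1, a membrane inhibitor of Wnt signalling, read 1.20, 0.851 and 0.572 CPM in WT luminal and 3.61, 5.11 and 7.44 CPM in MMTVRANK luminal libraries. Its basal values were 16.1, 16.9 and 7.36 CPM in WT and 8.85, 7.84 and 8.85 CPM in MMTVRANK. The lineage difference was −3.94 in WT and −0.66 in MMTVRANK, where the populations differed by little, and the luminal groups did not overlap (10.1% of all genes in this direction). Pthlh, the parathyroid hormone-related peptide that instructs mammary mesenchyme in the embryo, read 0.299, 0.284 and 0.381 CPM in WT luminal and 1.97, 2.05 and 5.80 CPM in MMTVRANK luminal libraries. In basal cells it stood at 10.3, 14.5 and 4.96 CPM in WT and 8.02, 8.52 and 8.07 CPM in MMTVRANK, which overlapped, and the difference was 3.58 (SE 0.76). Both genes rose in luminal cells by 2.62 and 3.31 (edgeR adjusted p = 0.0457 and 0.0457; 0.0932% of all genes were called higher).

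Sdk2, a cell adhesion protein of synapses, kept a gap of −6.56 in MMTVRANK against −8.23 in WT. Its luminal values were 0.524, 0.780 and 0.508 CPM in WT and 1.36, 3.13 and 2.64 CPM in MMTVRANK, and it rose in luminal cells by 1.97 (edgeR adjusted p = 0.0457). Asxl3, a Polycomb-associated protein, had 0 counts in all WT luminal libraries and 0.545, 0.0639 and 0.762 CPM in MMTVRANK luminal libraries, beside 15.0 to 29.8 CPM in basal libraries, so no fold is given. Abi3bp and Pamr1, extracellular proteins, were lower in all MMTVRANK than in all WT basal libraries. Abi3bp read 23.3, 16.7 and 6.93 CPM in WT basal and 3.18, 2.28 and 4.70 CPM in MMTVRANK basal libraries, and Pamr1 25.4, 8.14 and 6.76 and 3.33, 2.53 and 2.35 CPM. Both were under 1 CPM in luminal libraries, apart from Pamr1 in MMTVRANK luminal replicate 3, and higher in each MMTVRANK than in any WT luminal library. WT basal replicate 1, the highest for both genes, also had the highest summed fibroblast markers (5673 CPM). Without that library the differences were 3.60 and 3.81, the smallest with 1 library left out. The part of fibroblasts in them was not tested.

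Among luminal-restricted genes with a narrower gap, Csn3 had the smallest p. It encodes kappa-casein, a milk protein, and read 560.4, 219 and 799 CPM in WT luminal and 35.6, 12.3 and 13.3 CPM in MMTVRANK luminal libraries. Basal libraries read 14.3, 29.4 and 18.7 CPM in WT and 34.9, 20.2 and 41.0 CPM in MMTVRANK. The lineage difference was 4.66 in WT and −0.65 in MMTVRANK, where luminal and basal libraries overlapped. The difference between these was −5.31 (SE 0.78, edgeR adjusted p = 0.127), and, as for Col11a1, Pgm5 and Scarf2, it passed in 1 of the 12 fits with a library left out (without MMTVRANK luminal replicate 1, edgeR adjusted p = 0.0397). Within luminal cells it fell by 4.69 (edgeR adjusted p = 0.0286).

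The next genes with a narrower luminal gap were Dnaic1, Clic6, Cyp24a1, Pcdhac2 and Tmem86a (edgeR adjusted p from 0.285 to 0.413). Clic6, a chloride channel protein, read 53.5, 31.0 and 101 CPM in WT luminal and 2.18, 2.37 and 4.39 CPM in MMTVRANK luminal libraries. With 2.32, 1.30 and 0.685 CPM in WT and 1.51, 0.675 and 0.392 CPM in MMTVRANK basal libraries, the gap was 5.42 in WT and 1.78 in MMTVRANK, and the gene fell within luminal cells by 4.37 (edgeR adjusted p = 0.0286). Cyp24a1, the enzyme that inactivates vitamin D, had 9.06, 9.51 and 40.2 CPM in WT luminal and 1.43, 3.71 and 3.63 CPM in MMTVRANK luminal libraries, and at most 1.43 CPM in basal libraries. WT luminal replicate 3 was the highest library for both. Tmem86a, a lysoplasmalogenase, read 246, 68.4 and 65.8 CPM in WT luminal and 27.1, 7.10 and 5.74 CPM in MMTVRANK luminal libraries, with replicate 1 the highest of each genotype. Dnaic1, a dynein chain of motile cilia now named Dnai1, had 30.4, 15.0 and 15.9 CPM in WT luminal and 15.0, 12.7 and 8.26 CPM in MMTVRANK luminal libraries, which overlapped. Its difference came from basal libraries with few counts. Pcdhac2 shares 2860 of its 5888 exon bases with the other alpha protocadherin genes, so its counts are uncertain.

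Crb3, an apical polarity protein of the Crumbs complex, had the second smallest p of all genes and the smallest among luminal-restricted genes with a wider gap in MMTVRANK. It read 38.2, 50.1 and 33.9 CPM in WT luminal and 31.8, 32.5 and 27.2 CPM in MMTVRANK luminal libraries. Basal libraries read 2.86, 2.66 and 3.34 CPM in WT and 0.303, 0.337 and 0.470 CPM in MMTVRANK. All MMTVRANK libraries were below all WT libraries in both populations, more so in basal cells, where Crb3 fell by 2.97 (edgeR adjusted p = 0.00351) and was the 1 gene called there (0.00548%). The lineage difference was 3.78 in WT and 6.33 in MMTVRANK, and their difference of 2.55 (SE 0.36) did not pass (edgeR adjusted p = 0.0944).

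Among those that followed were Ctsh, Npas2, Esyt3 and Tnf, with edgeR adjusted p from 0.314 to 0.397. Each of these 4 had all 3 MMTVRANK basal libraries below all WT basal libraries, as held for 4.52% of all genes. Ctsh passed in 1 of the 12 fits with a library left out (without MMTVRANK luminal replicate 1, edgeR adjusted p = 0.0443). Ctsh, the lysosomal protease cathepsin H, read 13.5, 13.8 and 9.67 CPM in WT basal and 2.65, 3.71 and 4.23 CPM in MMTVRANK basal libraries, while luminal values overlapped from 41.0 to 111 CPM. Tnf, the cytokine, read 0.619, 2.52 and 1.11 CPM in WT basal and 0.0756, 0.422 and 0.235 CPM in MMTVRANK basal libraries against 7.86, 12.8 and 14.6 CPM in WT luminal and 19.7, 16.3 and 18.9 CPM in MMTVRANK luminal libraries, so that its luminal groups did not overlap either. Most pan-luminal markers lay in the same direction in basal libraries. Of the 24 genes of that list 22 (91.7%) were lower in MMTVRANK basal cells, against 49.3% of all genes, with a median log2 value of −0.80 against 0.00407 over all genes. None passed the test within basal cells, and in 5 the basal libraries did not overlap. The summed level was 3335, 3475 and 4278 CPM in WT basal and 2873, 2934 and 3603 CPM in MMTVRANK basal libraries, which overlapped. The list was lower in MMTVRANK luminal cells as well, with a median log2 value of −0.58, so its median lineage difference was only 0.17. Luminal sums ran from 19404 to 28140 CPM in WT and from 12012 to 17787 CPM in MMTVRANK, with no overlap. In WT and MMTVRANK basal libraries Krt18 read 107, 74.8 and 95.5 and 55.3, 45.2 and 42.5 CPM, Krt8 129.8, 165 and 99.3 and 126, 103 and 95.4 CPM, and Krt19 34.7, 40.0 and 26.6 and 36.5, 12.6 and 11.4 CPM. Of these keratins Krt18 alone was separated between genotypes. The part that luminal cells in the basal libraries had in the wider gaps was not tested.

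Several genes outside both classes had a lineage difference in 1 genotype and little or the opposite in the other. Csrp2, a LIM-domain protein of smooth muscle, read 0.823, 2.13 and 1.78 CPM in WT luminal and 11.5, 5.56 and 7.498 CPM in MMTVRANK luminal libraries. Against 24.3, 18.5 and 10.6 CPM in WT basal and 10.5, 7.504 and 7.29 CPM in MMTVRANK basal libraries, its gap was −3.49 in WT and −0.04 in MMTVRANK. Edn1, the vasoconstrictor peptide endothelin 1, had a gap of −1.23 in WT and one of opposite sign, 3.24, in MMTVRANK. It read 2.54, 6.74 and 2.10 CPM in WT luminal, 5.45, 10.5 and 16.6 CPM in MMTVRANK luminal, 8.66, 14.4 and 3.68 CPM in WT basal and 1.21, 1.43 and 0.783 CPM in MMTVRANK basal libraries, overlapping in luminal cells alone. Hey1, a Notch target, had opposite signs the other way round, 1.37 in WT and −2.41 in MMTVRANK, with 11.2, 7.38 and 41.1 CPM in WT luminal and 1.09, 0.511 and 1.64 CPM in MMTVRANK luminal libraries. Hey1 fell in luminal cells by 4.19 (edgeR adjusted p = 0.043). Ggt1, the gamma-glutamyltransferase of glutathione turnover, and Plod1, a collagen lysyl hydroxylase, were about level between populations in WT (−0.45 and −0.13) and lower in luminal cells in MMTVRANK (−2.74 and −1.77). Their differences, and those of Csrp2, Edn1 and Hey1, had edgeR adjusted p from 0.186 to 0.39.

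Of the defining markers of both lineages, all but Gata3 kept a clear side in both genotypes. Krt8 and Krt18, the luminal keratin pair, had lineage differences of 4.11 and 5.84 in WT and 3.79 and 6.12 in MMTVRANK, and Krt19 6.78 and 6.74. Krt5 stood at −8.78 in WT and −7.68 in MMTVRANK, Trp63, the basal master regulator, at −9.12 and −7.84, and Acta2, smooth muscle actin, at −8.83 and −8.32. Krt14 differed most among the keratins named, with −8.91 in WT and −6.06 in MMTVRANK (difference 2.85, SE 1.04, edgeR adjusted p = 0.583). It read 0.823, 8.16 and 10.2 CPM in WT luminal and 10.2, 23.8 and 69.2 CPM in MMTVRANK luminal libraries, highest in MMTVRANK luminal replicate 3, beside 1819 to 3581 CPM in basal libraries. Without that library the difference was 1.84. Gata3, a luminal regulator, was similar in both sorted populations, at 0.55 in WT and 0.48 in MMTVRANK.

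Oxtr, the oxytocin receptor, had a gap of −5.51 in WT and −5.06 in MMTVRANK, with 3.61, 7.29 and 64.3 CPM in MMTVRANK luminal libraries. Its difference of 0.46 became −1.74 without MMTVRANK luminal replicate 3, and that of Acta2 went from 0.51 to −0.57. Esr1 and Pgr, the hormone receptors, had gaps of 3.93 and 4.28 in WT and 3.07 and 2.65 in MMTVRANK. Pgr read 833, 380.3 and 579.5 CPM in WT luminal and 357, 288 and 63.0 CPM in MMTVRANK luminal libraries, lowest in MMTVRANK luminal replicate 3, and its difference of −1.63 was −0.99 without both MMTVRANK libraries numbered 3. Prlr, the prolactin receptor, Kit, a progenitor receptor, and Elf5, the alveolar regulator, had differences of 0.14, 0.37 and −0.12, each smaller than its SE (0.74, 0.55 and 1.04).

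The milk genes differed among themselves. Csn2, beta-casein, read 26.0, 115 and 104 CPM in WT luminal and 105, 82.4 and 40.5 CPM in MMTVRANK luminal libraries, which overlapped, and its difference was 0.66 (SE 1.17). Lalba, the regulatory subunit of lactose synthase, read 31.5, 34.5 and 64.4 CPM in WT luminal and 0.681, 0.320 and 0.820 CPM in MMTVRANK luminal libraries and at most 0.685 CPM in basal libraries. It fell in luminal cells by 6.14 (edgeR adjusted p = 0.00921). Spp1, the secreted phosphoprotein osteopontin, had 211, 109 and 383 CPM in WT luminal and 5.99, 1.15 and 1.70 CPM in MMTVRANK luminal libraries and also fell there, by 6.32 (edgeR adjusted p = 0.0263). Its gap was 5.69 in WT and 1.53 in MMTVRANK, a difference that did not pass (edgeR adjusted p = 0.414); 309 of its exon bases overlap another gene on its strand. The 22 tested milk and alveolar genes split into 12 with a higher and 10 with a lower difference (median 0.01), and 0 passed. The mean of the list was lower in each MMTVRANK pair (2.66, 2.29 and 2.68) than in any WT pair (3.28, 3.00 and 3.17), and the mean difference of the fit was −0.25, opposite in sign to the median. In 4 members the MMTVRANK pairs lay below the WT pairs and in 1 above them, beside 6.86% and 7.89% of all genes. The median ran from −0.19 without WT basal replicate 3 to 0.32 without MMTVRANK basal replicate 1.

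Over the lineage lists, 0 members passed the test of the difference, and the list medians are read against 0.05 over all genes. Pan-luminal markers had a median of 0.17 (16 of 24 higher), luminal progenitor markers 0.06 (13 of 25 higher) and lineage transcription factors 0.06 (19 of 33). For the progenitor markers the mean difference was −0.47, opposite in sign to the median, and the median gap was 3.41 in WT and 1.88 in MMTVRANK. In 7 of the 25 the MMTVRANK pairs lay below the WT pairs, as held for 6.86% of all genes, and in 1 above them. The list mean per pair overlapped, at 2.08, 2.76 and 3.51 in WT and 1.84, 2.24 and 2.51 in MMTVRANK, and the median of the differences ran from −0.19 without WT luminal replicate 2 to 0.49 without WT luminal replicate 3. Hormone-sensing markers had the lowest list median, −0.41, with 17 of 25 lower, and it was −0.07 without MMTVRANK luminal replicate 3. Their summed level was 33479.6, 17022 and 17625 CPM in WT luminal and 15528, 10744 and 4602 CPM in MMTVRANK luminal libraries, the lowest being MMTVRANK replicate 3. Ptn, the growth factor pleiotrophin, read 9402, 5366 and 4825 CPM in WT luminal and 3441, 3426 and 1343 CPM in MMTVRANK luminal libraries. Its gap was 4.47 in WT and 2.87 in MMTVRANK (edgeR adjusted p = 0.576). Tspan8, a tetraspanin listed with the progenitors, fell in luminal cells by 4.08 (edgeR adjusted p = 0.0421), with 15.8, 7.87 and 27.4 CPM in WT and 1.97, 0.384 and 0.644 CPM in MMTVRANK.

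Basal and myoepithelial markers had 30 of 42 members with a smaller gap in MMTVRANK (median 0.58), and smooth muscle contraction genes 17 of 22 (median 0.55). They were −0.29 and −0.10 without MMTVRANK luminal replicate 3. Myh11, the smooth muscle myosin, shows how: it read 7.78, 10.1 and 20.6 CPM in WT luminal and 18.9, 12.9 and 114 CPM in MMTVRANK luminal libraries, where the third stood far above the others. Cdh3, P-cadherin, did not rest on that library alone, with 0.524, 1.49 and 2.29 CPM in WT luminal and 3.81, 3.20 and 5.80 CPM in MMTVRANK luminal libraries and no overlap. Summed over the basal and myoepithelial list, levels went the other way, with no overlap in either population. They ran from 3033 to 3684 CPM in WT luminal and from 2583 to 2976 CPM in MMTVRANK luminal libraries. Basal libraries ran from 44526 to 47298.5 CPM in WT and from 49711 to 52801 CPM in MMTVRANK. The summed smooth muscle contraction genes were also higher in MMTVRANK basal libraries (31167 to 34112 against 24712 to 26830 CPM) but overlapped in luminal libraries. Lgr5, a Wnt-associated stem cell receptor, had the smallest p of the basal list. It read 63.9, 25.9 and 49.8 CPM in WT basal and 18.8, 14.3 and 13.8 CPM in MMTVRANK basal libraries, all lower in MMTVRANK, and its difference was 1.498 (SE 0.43, edgeR adjusted p = 0.438). Itgb4, the hemidesmosome integrin, had a similar basal pattern, with 192, 184 and 167 CPM in WT basal and 83.6, 131 and 76.9 CPM in MMTVRANK basal libraries. Of its exon bases 537 overlap a gene on the other strand. Over the 27 hemidesmosome, laminin and integrin genes the median was −0.07, with 12 higher and 15 lower. It was 0.53 without WT luminal replicate 3 and −0.39 without MMTVRANK luminal replicate 3. Itgb4 did not stand for this list, of which 7 of 27 (25.9%) were lower in MMTVRANK basal cells, against 49.3% of all genes. At an unadjusted p under 0.05, 2 were higher and 5 lower (4.55% and 3.18% of all genes). Luminal sums ran from 5657 to 7528 CPM in WT and from 3985 to 4850 CPM in MMTVRANK, with no overlap, while the basal sums overlapped.

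Among lineage transcription factors, Tcf7l1, a Wnt pathway repressor of the basal layer, had the smallest p. It read 7.56, 12.2 and 10.04 CPM in WT luminal and 19.3, 22.8 and 59.2 CPM in MMTVRANK luminal libraries and 86.6 to 121 CPM in basal libraries. Its gap was −3.51 in WT and −1.62 in MMTVRANK (edgeR adjusted p of the difference 0.415), and the difference of 1.89 was 1.20 without MMTVRANK luminal replicate 3. Runx1, a regulator active in both layers, read 718, 613 and 667 CPM in WT luminal and 389, 342 and 253 CPM in MMTVRANK luminal libraries, with no overlap, and its difference was −0.87 (SE 0.29). Bcl11b, a basal zinc finger factor, had at most 1 count in each WT luminal library and 0.476, 0.448 and 3.22 CPM in MMTVRANK luminal libraries, so no fold is given.

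**Figure D4:**
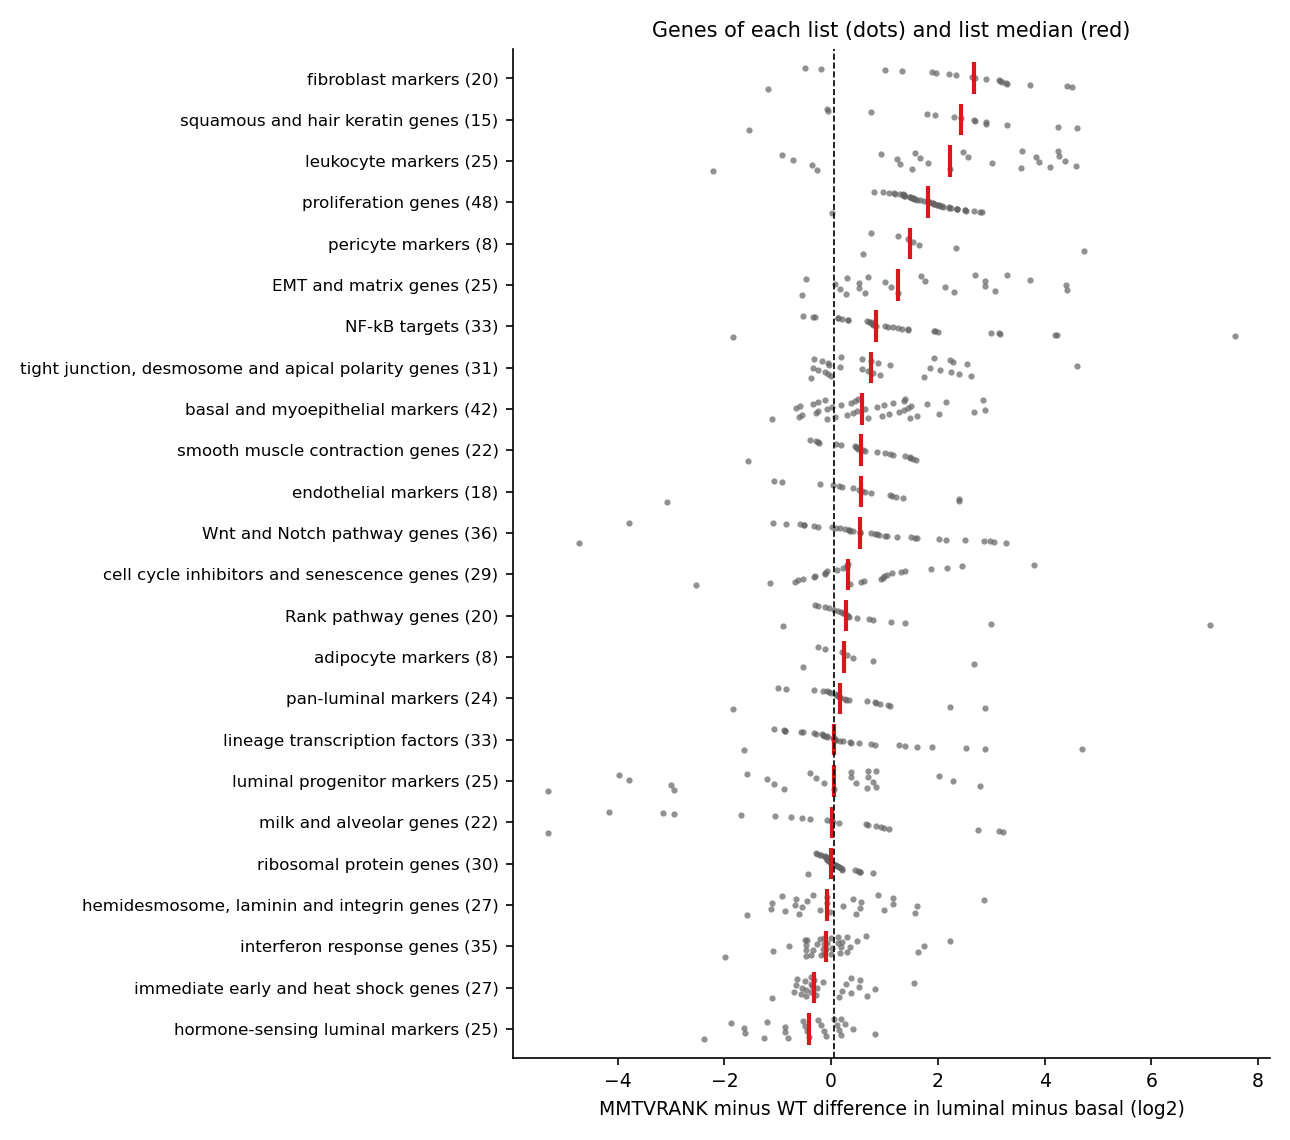
MMTVRANK-minus-WT difference of the luminal-minus-basal value (log2) for the tested genes of each list, with the list median in red and the median of all tested genes (0.05) as a dashed line; list sizes are in brackets. All 48 proliferation genes lie to the right of 0, and fibroblast markers have the highest median (2.67) and hormone-sensing markers the lowest (−0.41).

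Proliferation genes shared 1 direction. All 48 had a higher luminal-minus-basal value in MMTVRANK than in WT, with a median difference of 1.82, yet 0 passed the test. At an unadjusted p under 0.05 there were 13 (4.55% of all genes in this direction), and in 19 the 3 MMTVRANK pairs lay above the 3 WT pairs, as held for 7.89% of all genes. Mean log2 values per pair were −0.69, −1.19 and 0.54 in WT and 0.87, 0.27 and 1.49 in MMTVRANK, so that the third WT pair overlapped the MMTVRANK range. The summed level was 690.2, 1042 and 454 CPM in WT luminal and 4448, 2009 and 4049 CPM in MMTVRANK luminal libraries, with no overlap. In basal libraries it was 1064, 2594 and 451 CPM in WT and 2544, 1915 and 1445 CPM in MMTVRANK, where the library labelled WT basal replicate 2 was the highest of all 6. Without both WT libraries numbered 2 the list median was 1.22, and without WT basal replicate 2 alone it was 0.93.

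Mki67, the proliferation antigen Ki-67, read 72.5, 161 and 30.1 CPM in WT luminal and 911, 402 and 878 CPM in MMTVRANK luminal libraries. Its basal values were 158, 533 and 19.4 CPM in WT and 501, 434 and 219.9 CPM in MMTVRANK, and the difference was 2.35 (SE 1.28, edgeR adjusted p = 0.711). Without WT basal replicate 2 it was 0.93, and without both WT libraries numbered 2 it was 1.70. Atad2, an ATPase of S phase chromatin, read 20.5, 32.2 and 22.0 CPM in WT luminal and 114, 62.1 and 101 CPM in MMTVRANK luminal libraries, and its gap was −1.64 in WT and −0.04 in MMTVRANK. In the same order the gaps were −1.53 and 0.00139 for Pola1, DNA polymerase alpha, −1.99 and −0.01 for Skp2, a ubiquitin ligase subunit that targets a cell cycle inhibitor, and −0.75 and 0.92 for Tyms, thymidylate synthase. These 4 genes, which had the smallest p of the list, rose within luminal cells by 1.89, 1.82, 2.65 and 1.97 (edgeR adjusted p = 0.0385, 0.043, 0.043 and 0.0457). In basal cells their values were between 0.28 and 0.67 and none passed.

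Cell cycle inhibitors and senescence genes had a median of 0.32 with 19 of 29 higher and 0 passing. Their summed luminal level went the other way, with 2835, 2564 and 5259 CPM in WT and 1514, 1600 and 1975 CPM in MMTVRANK libraries and no overlap. A sum weighs abundant members most, and the median genotype value over the members in luminal cells was 0.34, higher in MMTVRANK. The basal sums overlapped. Cdkn2a, which encodes p16 and p19Arf, read 1.35, 3.83 and 3.62 CPM in WT luminal and 11.9, 8.38 and 4.04 CPM in MMTVRANK luminal libraries, and under 1 CPM in all basal libraries. All luminal MMTVRANK values exceeded the WT values, the closest being 4.04 against 3.83 CPM, and the difference of 2.46 (SE 1.13) did not pass (edgeR adjusted p = 0.646). It was 1.11 without WT basal replicate 2 and 1.34 without both WT libraries numbered 2. Cdkn1a, which encodes p21, differed in the basal population, with 85.6, 99.97 and 87.4 CPM in WT and 48.8, 38.1 and 42.6 CPM in MMTVRANK basal libraries, against 36.9 to 59.9 CPM in luminal libraries. Its luminal-minus-basal value was −0.77 in WT and 0.17 in MMTVRANK (edgeR adjusted p of the difference 0.415). Gadd45a, a stress-response gene, fell in luminal cells by 1.17 (edgeR adjusted p = 0.0457), from 169, 197 and 138 CPM in WT to 87.3, 85.8 and 50.9 CPM in MMTVRANK, and its gap was 1.55 in WT and 0.40 in MMTVRANK. Of its exon bases 337 (19.1%) overlap a gene on the other strand, whose reads cannot be told apart. Igfbp5, a secreted binding protein of insulin-like growth factors, had a gap of −1.99 in WT and −4.53 in MMTVRANK (edgeR adjusted p = 0.447).

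Targets of NF-kB, the pathway downstream of Rank, had 29 of 33 members with a higher luminal-minus-basal value in MMTVRANK (median 0.85), of which 8 had an unadjusted p under 0.05 (4.55% of all genes in this direction) and 0 passed. Mean values per pair were −0.96, −0.35 and −0.82 in WT and 0.02, −0.08 and 0.93 in MMTVRANK, with no overlap and the highest in the third MMTVRANK pair. Without MMTVRANK luminal replicate 3 the median was 0.54. The median genotype value over the list was 0.60 in luminal and −0.21 in basal cells. Summed levels overlapped in both populations. They were 1981, 2675 and 3001 CPM in WT luminal and 1930, 2599 and 3533 CPM in MMTVRANK luminal libraries. Basal sums ran from 3569 to 5654 CPM in WT and from 3114 to 4304 CPM in MMTVRANK. Besides Tnf, given above, Vcam1, an adhesion receptor for leukocytes, read 0.225, 2.98 and 5.34 CPM in WT luminal and 5.65, 30.5 and 91.5 CPM in MMTVRANK luminal libraries. Lcn2, the iron-binding lipocalin 2, went against the list, and fell by 2.02 in luminal cells (edgeR adjusted p = 0.0457) from 363, 424 and 841 CPM in WT to 109, 133 and 159.6 CPM in MMTVRANK.

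The 20 Rank pathway genes had a median of 0.28 with 15 higher, and 0 passed. Tnfrsf11a itself had a lineage difference of −1.47 in WT and −0.10 in MMTVRANK (difference 1.38, SE 1.19, edgeR adjusted p = 0.856). The difference was 3.4998 without WT luminal replicate 2, 0.86 without WT basal replicate 2 and 2.99 without both. Ikbkg, the NF-kB kinase subunit Nemo, had a gap of 2.02 in WT and 1.12 in MMTVRANK, with 12.7, 18.4 and 17.1 CPM in WT basal and 22.2, 21.6 and 29.8 CPM in MMTVRANK basal libraries (edgeR adjusted p = 0.525). Tnfrsf11b, the Rankl decoy receptor osteoprotegerin, had 1 count over all WT luminal libraries and 0, 1.21 and 16.0 CPM in MMTVRANK luminal libraries, nearly all of it in replicate 3, beside 29.1 to 64.6 CPM in basal libraries.

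Of 36 Wnt and Notch pathway genes 27 had a higher value (median 0.54), led by Apcdd1 and with Hey1 in the other direction. Nkd1, an inhibitor and target of Wnt signalling, read 0.0748, 0 and 0.445 CPM in WT luminal and 1.29, 1.15 and 2.81 CPM in MMTVRANK luminal libraries against 94.0 to 165 CPM in basal libraries (difference 2.86, edgeR adjusted p = 0.412). The list median was 0.28 without MMTVRANK luminal replicate 3. Tight junction, desmosome and apical polarity genes had 21 of 31 higher (median 0.75) and 7 with an unadjusted p under 0.05, all in the higher direction (4.55% of all genes). The leading 4 were Crb3, Tjp3, Pard6b and Marveld3. Tjp3, a tight junction scaffold, read 94.2, 98.4 and 84.1 CPM in WT luminal and 101, 109 and 196 CPM in MMTVRANK luminal libraries, and 7.501, 8.28 and 2.57 CPM in WT basal and 2.496, 2.70 and 1.88 CPM in MMTVRANK basal libraries. The list median was 0.39 without WT basal replicate 2, which had the highest summed basal level (3644, 6091 and 3409.5 CPM in WT basal libraries). MMTVRANK basal sums ran from 3281 to 4115 CPM and overlapped these. Luminal sums were lower in MMTVRANK, at 6777 to 7245 CPM against 7264 to 8638 CPM in WT, with no overlap. The median genotype value over the list was −0.13 in luminal and −0.72 in basal cells.

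Interferon response genes had a median of −0.10 (14 of 35 higher), immediate early and heat shock genes −0.32 (10 of 27) and ribosomal protein genes 0.00 (15 of 30). The interferon median was −0.72 without WT basal replicate 3 and 0.40 without MMTVRANK basal replicate 2, and the immediate early median ran from −0.58 to −0.0729 with single libraries left out. The single gene of these lists that passed within a population among those named was Fosb, an AP-1 subunit, which fell in luminal cells by 1.27 (edgeR adjusted p = 0.0457), from 4294, 2985 and 3876 CPM in WT to 1767, 1528 and 1340.4 CPM in MMTVRANK.

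Markers of other cell types moved with the lineage comparison and are given for that reason. Leukocyte markers had 20 of 25 tested members higher (median 2.24), which became −2.41 without MMTVRANK luminal replicate 3. Their summed level was 149.5, 155 and 178 CPM in WT luminal and 131, 168 and 1651 CPM in MMTVRANK luminal libraries, so that the third MMTVRANK library stood apart. Ptprc, the pan-leukocyte antigen CD45, read 1.72, 0.638 and 1.65 CPM in WT luminal and 0.817, 0.384 and 48.7 CPM in MMTVRANK luminal libraries, and 0.155, 1.08 and 2.40 CPM in WT basal and 0.681, 2.78 and 12.2 CPM in MMTVRANK basal libraries. Cd74, the invariant chain of antigen-presenting cells, was at 3.06, 23.97 and 610.3 CPM in MMTVRANK luminal libraries, and Coro1a, a leukocyte coronin, at 0.545, 0.0639 and 22.9 CPM.

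Fibroblast markers had the highest list median, 2.67, with 17 of 20 higher. Their summed level in basal libraries was 5673, 2209 and 1789 CPM in WT and 2511, 2415 and 2545 CPM in MMTVRANK, with WT basal replicate 1 the highest, and in luminal libraries 173, 59.7 and 193 CPM in WT and 153, 252 and 711 CPM in MMTVRANK. Without WT basal replicate 1 the median was 0.76, and without MMTVRANK luminal replicate 3 it was 1.33. Pdgfra, the defining fibroblast receptor, read 104, 16.2 and 41.8 CPM in WT basal and 33.7, 30.02 and 21.5 CPM in MMTVRANK basal libraries. In luminal libraries it read 5.39, 2.62 and 11.1 CPM in WT and 1.84, 0.256 and 4.98 CPM in MMTVRANK, which overlapped, with WT luminal replicate 3 the highest. Matrix genes of epithelial-mesenchymal transition, in part the same genes, had 23 of 25 higher (median 1.26, or 0.36 without MMTVRANK luminal replicate 3). Vim, vimentin, read 7.86, 2.27 and 9.59 CPM in WT luminal and 9.26, 15.3 and 83.1 CPM in MMTVRANK luminal libraries, and Postn, periostin, 1.20, 6.10 and 22.3 and 14.0, 163 and 385 CPM.

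Endothelial markers had a median of 0.55 (14 of 18 higher), or 0.03 without MMTVRANK luminal replicate 3. Pericyte markers had 1.48 (8 of 8), and adipocyte markers 0.24 (5 of 8), or 0.04 with groups at 0 set to the floor. Their defining genes in luminal libraries read 6.51, 2.98 and 4.45 CPM in WT and 8.51, 5.56 and 10.3 CPM in MMTVRANK for Pecam1, and 2.69, 2.62 and 3.68 and 5.38, 5.43 and 14.3 CPM for Rgs5, again highest in MMTVRANK luminal replicate 3. Summed over each whole list, that library was instead the lowest luminal library. Endothelial markers summed to 162, 226 and 283 CPM in WT luminal and 211, 272 and 159 CPM in MMTVRANK luminal libraries. For pericyte markers the sums were 220, 270 and 249 CPM and 230, 205 and 191 CPM. Adipoq was at 0 in all luminal libraries and at most 0.171 CPM in basal libraries. Squamous and hair keratin genes had 12 of 15 higher (median 2.43), which turned to −0.56 without WT basal replicate 2. Dsc3, desmocollin 3, read 68.0, 350.0 and 22.2 CPM in WT basal libraries, where the library labelled replicate 2 was the highest. The part that leukocytes, fibroblasts or other cells in single libraries had in the lineage differences was not tested.

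**Figure D5:**
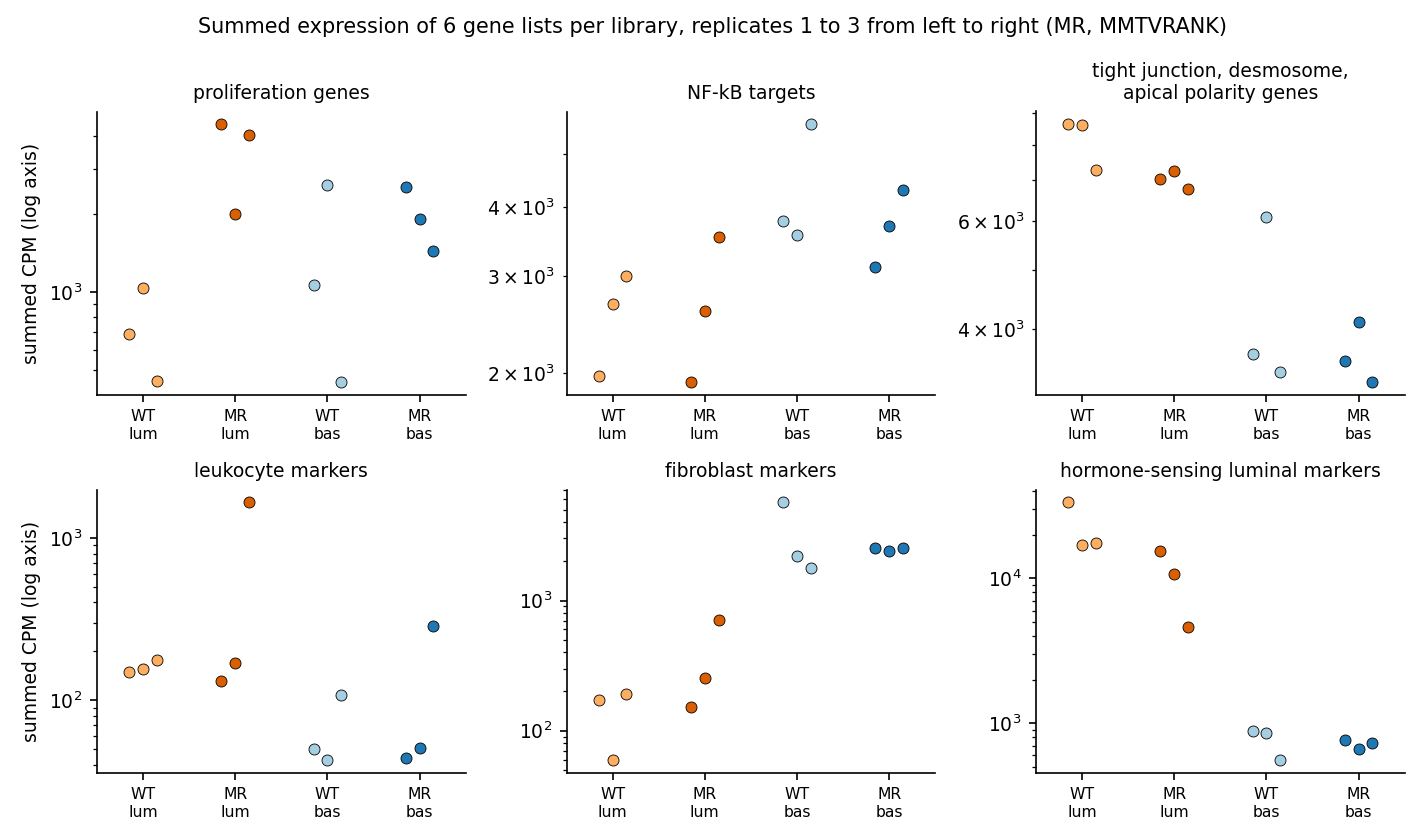
Summed CPM of 6 gene lists in each library on a log axis, with replicates 1 to 3 from left to right in each group. Proliferation genes are higher in all MMTVRANK than in all WT luminal libraries, and MMTVRANK luminal replicate 3 stands apart in leukocyte markers (1651 CPM, where the other luminal libraries range from 131 to 178 CPM).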

How the data were processed

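RNA of sorted mammary epithelial cells was sequenced after a stranded low-input total RNA kit, per the labels' protocols. The submitters' processing notes name STAR 2.6.1b and GRCm38.p6 for alignment, and whole read counts per gene symbol were made by the authors with featureCounts 1.5.2 on GENCODE M17 and deposited raw, per the file headers. The command sets no strand option, per the file headers, so reads of overlapping genes on the 2 strands cannot be told apart. The deposited table has 53735 symbols, 15946 of them without a count.

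Genes were kept by filterByExpr of edgeR 4.0.16 (R 4.3.3) with a minimum of 10 counts (0.728 CPM), leaving 18236. Counts were scaled by TMM and fitted in 1 robust quasi-likelihood model of 4 groups over 12 libraries (biological coefficient of variation 0.450). The contrast was luminal minus basal in MMTVRANK minus the same in WT, and the within-population and within-genotype contrasts came from the same fit. All log2 values, SEs and edgeR adjusted p (Benjamini-Hochberg over all tested genes, threshold 0.05) come from it, except the values per pair of libraries. Those are differences of log2 CPM with a prior count of 2. The SE is the log2 value over the square root of F. CPM are TMM-scaled. For genes with a group at 0 a floor of 3 counts per group was also used, which covers counting error only. No pair of libraries within a group was a duplicate (chi-square per degree of freedom at least 25.5). Pairs across groups were not compared.

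Named genes were those that passed with an average log2 CPM of 2 or more and no clone name, overall and in each class; 20 genes fixed by name (Tnfrsf11a, Krt5, Krt14, Krt8, Krt18, Krt19, Trp63, Acta2, Oxtr, Gata3, Elf5, Kit, Esr1, Pgr, Prlr, Csn2, Csn3, Lalba, Mki67 and Cdkn2a); and up to 4 genes of the smallest p in each described list. Only Epb41l3 passed, so the other genes of each class, 6 by smallest p, and Csrp2, Edn1, Ggt1 and Plod1 were taken after their values were seen; 1 of them is not reported here. The members, the 24 gene lists (658 entries, 573 distinct genes, 543 tested) and the named genes were chosen with earlier results of these data known.

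The labels do not say what a replicate number marks. In 10082 genes (average log2 CPM above 3) the correlations of deviations from the group means for numbers 1, 2 and 3 were 0.277, 0.168 and 0.343 between populations in WT and 0.278, 0.144 and 0.199 in MMTVRANK. They were read as pairing the populations within a genotype, on the data alone. Between genotypes they were 0.525, 0.125 and 0.392 in luminal but 0.404, −0.071 and 0.091 in basal libraries. For WT luminal with MMTVRANK basal libraries they were 0.262, 0.205 and 0.116, and for MMTVRANK luminal with WT basal libraries 0.120, −0.101 and 0.023. Libraries of different numbers were not compared. These values do not tell pairs within a genotype from a number shared by all groups. DESeq2 1.42.0, limma-voom (limma 3.58.1), RLE scaling, other filters, replicate blocks, other definitions of restriction and leaving out libraries were the alternatives. The scripts were tested on simulated data. Promoter windows came from RefSeq (GRCm38.p6) by gene symbol.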

Additional observations from a re-analysis of the deposited data

Results flagged for a closer look

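The effect of the MMTVRANK genotype on Epb41l3 differed between luminal and basal cells by −3.74 on the log2 scale (edgeR adjusted p = 0.042), with all 3 MMTVRANK pairs of libraries below all 3 WT pairs. The genotype value was −3.18 in luminal and 0.56 in basal cells. With a block for pairs of libraries the difference was −3.87 (edgeR adjusted p = 0.111). No cause was tested. With 3 libraries per group, single libraries were not tested as outliers.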

How the results depend on the processing

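The count of 1 gene called (0 higher, 1 lower) was the least stable result. It was 140 with DESeq2 (72 higher, 68 lower), 0 with limma-voom, 776 with no filter on low counts (607 higher, 169 lower), 0 with a minimum of 50 counts, and 0 with a replicate block by number or by genotype and number. Without both WT libraries numbered 2 it was 3 (1 higher, 2 lower), and without both MMTVRANK libraries numbered 3 it was 0. With 1 library left out at a time it ran from 0 to 7 (0 to 5 higher, 0 to 3 lower), with the 7 reached without MMTVRANK luminal replicate 1. The causes were not tested.

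Basal-restricted genes called with a wider gap, 1 in all libraries, were 27 with DESeq2, 63 with no filter, 2 without both WT libraries numbered 2, and 0 with limma-voom, the minimum of 50 counts, both replicate blocks, without both MMTVRANK libraries numbered 3, and with restriction taken at 3 or from WT alone; leaving out single libraries gave 0 to 3. Those with a narrower gap, 0 in all libraries, were 27 with DESeq2, 250 with no filter and 1 without both WT libraries numbered 2, and 0 to 2 with single libraries left out. Luminal-restricted genes called with a narrower gap were 8 with DESeq2 and 38 with no filter, and those with a wider gap 11 and 100, against 0 in all libraries; with single libraries left out they were 0 and 0 to 1.

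The basal-restricted median of 0.59 was 0.90 without both WT libraries numbered 2, 0.11 without both MMTVRANK libraries numbered 3, 0.93 with restriction taken from WT alone, 0.16 from MMTVRANK alone, and 0.13 to 1.10 with single libraries left out. The luminal-restricted median of 0.05 was −0.16 without both WT libraries numbered 2, −0.31 with restriction from WT alone, 0.51 from MMTVRANK alone, and −0.26 to 0.21 with single libraries left out. Defining restriction in 1 genotype uses libraries that also enter the difference. The percent of basal-restricted genes with a higher value ran from 53.6 to 75.7 with single libraries left out.

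Among named genes, the sign of the difference turned in 15 of the fits with other settings: Krt19 with limma-voom (0.13) and the blocks (0.10 and 0.13), Acta2 (−0.45), Gata3 (0.0846), Kit (−0.27), Myh11 (−0.16) and Oxtr (−1.57) without both MMTVRANK libraries numbered 3, Oxtr with limma-voom (−0.37) and the block by genotype and number (−0.39), Elf5 with limma-voom (0.90), that block (0.0399) and without both WT libraries numbered 2 (0.20), Prlr without the latter (−0.076) and Csn2 with limma-voom (−0.0151). With single libraries left out it turned in 22 fits, over ranges of −0.57 to 1.07 for Acta2, −0.0478 to 5.22 for Coro1a, −0.15 to 1.21 for Csn2, −0.87 to 0.90 for Elf5, −0.27 to 0.27 for Gata3, −0.0551 to 0.84 for Kit, −0.34 to 0.70 for Krt19, −0.13 to 1.99 for Myh11, −1.74 to 1.20 for Oxtr and −0.27 to 0.84 for Prlr. Depth limits genes near the filter of 0.728 CPM, whose gaps rest on few counts in 1 population.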

Other observations

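Of the basal-restricted genes, 1625 had an edgeR adjusted p under 0.05 for luminal against basal in both genotypes, 485 in WT alone and 129 in MMTVRANK alone. Of the luminal-restricted genes the numbers were 894, 141 and 129. Passing in 1 genotype alone is not a test of a difference between them. In the third MMTVRANK pair 1693 of the 2436 basal-restricted genes had a gap of at least 2 on the log2 scale, against 1962 to 2062 in the other 5 pairs. Among luminal-restricted genes the third MMTVRANK pair had 894 of 1274, against 949 to 1061 in the other 5 pairs.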
